A study of Trichoderma reesei with 11 samples.

Results

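The data described here are the levels of 104 gene IDs of Trichoderma reesei that were lower in a strain without the kinase gene TR_57513 than in its parent, both in light and in darkness. T. reesei is a mould known for the cellulases it secretes. The deletion strain, QM6a-delta-mus53-delta-57513, lacks mus53 and TR_57513, and the parent, QM6a-delta-mus53, lacks mus53 alone and is labelled as wild type for the 57513 deletion. All cultures therefore carried the mus53 deletion, which removes a function of DNA end joining and favours targeted gene replacement. The mycelium had grown for 96 h at 28 °C in minimal medium with cellulose, either in constant light (LL) or in constant darkness (DD). The libraries numbered 3 for the deletion strain in light, 3 for the parent in light, 3 for the deletion strain in darkness and 2 for the parent in darkness. The labels name no complemented strain and do not say how many transformants or cultures stand behind the libraries, so the spread between libraries may be technical.

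The series title calls TR_57513 a MAPKKK of the HOG pathway. In yeast, where this pathway was worked out, a MAPKKK phosphorylates a MAPKK, which activates the MAP kinase Hog1, and the cascade answers high osmolarity with changes in transcription and glycerol synthesis. In filamentous fungi, relatives of Hog1 are also known for roles in other stress responses, and in several species the pathway is linked to light signalling.

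The members were chosen on the values themselves. Counts were scaled to the same total in each library (CPM, the count divided by the library total and multiplied by 1000000) and averaged over each group, and 0.5 was added. A gene ID was taken when the ratio of deletion strain to parent was at most 0.6 in light and in darkness, when the parent reached 5 in at least 1 condition, and when every deletion library lay below every parent library of the same light condition. The first and last 20 IDs of each of the 7 lettered ID series, TrA to TrG, were left out, which left 10596 of 10879 IDs. Of these, 754 met the ratio in light, 497 met it in darkness, 171 met both, and 158 of the 171 also met the level. The condition on single libraries then left 104, or 0.982% of the IDs considered. Libraries did not overlap and the deletion strain was lower for 16.4% of the IDs considered in light and 13.3% in darkness, and by the rule this holds for all 104 members in both conditions. The strain differences below are therefore a description, without a test.

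The file pairs no ID with a gene name, and 0 of its 10879 IDs were found among the 9116 genes of the RefSeq table given for this species. Members are named by ID, and no function is given for any of them. No ID was matched to the deleted locus, so the deletion was not checked against the labels. Library totals were 8924252 to 10184280 counts for the deletion strain in light, 8020351 to 8770166 for the parent in light, 13790024 to 18278047 for dark deletion cultures and 15175573 to 16308391 for dark parent cultures. A single count was worth 0.0547 to 0.125 CPM. Markers of mycelium could not be looked up without gene names.

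Parent libraries differed among themselves in a way that cut across the members. In light, replicate 1 of the parent was the highest of its group for 43 members and the lowest for 50, replicate 3 was the highest for 47 and the lowest for 39, and replicate 2 was the highest for 14 and the lowest for 15. Replicate 2 therefore lay between the others for most members. Of the deletion libraries in darkness, replicate 1 was the lowest for 58 members. The highest parent library was over 3-fold above the lowest for 12 members in light and for 10 in darkness. The lowest parent library exceeded the highest deletion library by a median factor of 1.9 over 101 members in light and 1.86 over 104 in darkness, and by as little as 1.06 and 1.05. Without deletion replicate 1 in darkness the rule gave 169 members (98 of the 104 among them), without parent replicate 1 in darkness 179 (96 of the 104), and without parent replicate 2 in darkness 96 (85 of the 104). Without deletion replicate 1 in darkness, the light test below called 31 members higher and 35 lower in the deletion strain, and 31 and 32 in the parent.

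The lowering was typically about 3-fold. The median ratio of deletion strain to parent was 0.325 in light, with quartiles of 0.175 and 0.467, and 0.375 in darkness, with quartiles of 0.222 and 0.486. A ratio of 0.25 or less was found for 40 members in light, for 30 in darkness and for 19 in both. At most 0.1 was reached by 12 members in light and 8 in darkness. The added 0.5 raises the ratio of members with few counts. Without it, and with a deletion group at 0 counts set to a floor of 3 counts over the group, the medians were 0.28 in light and 0.36 in darkness.

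**Figure D1:**
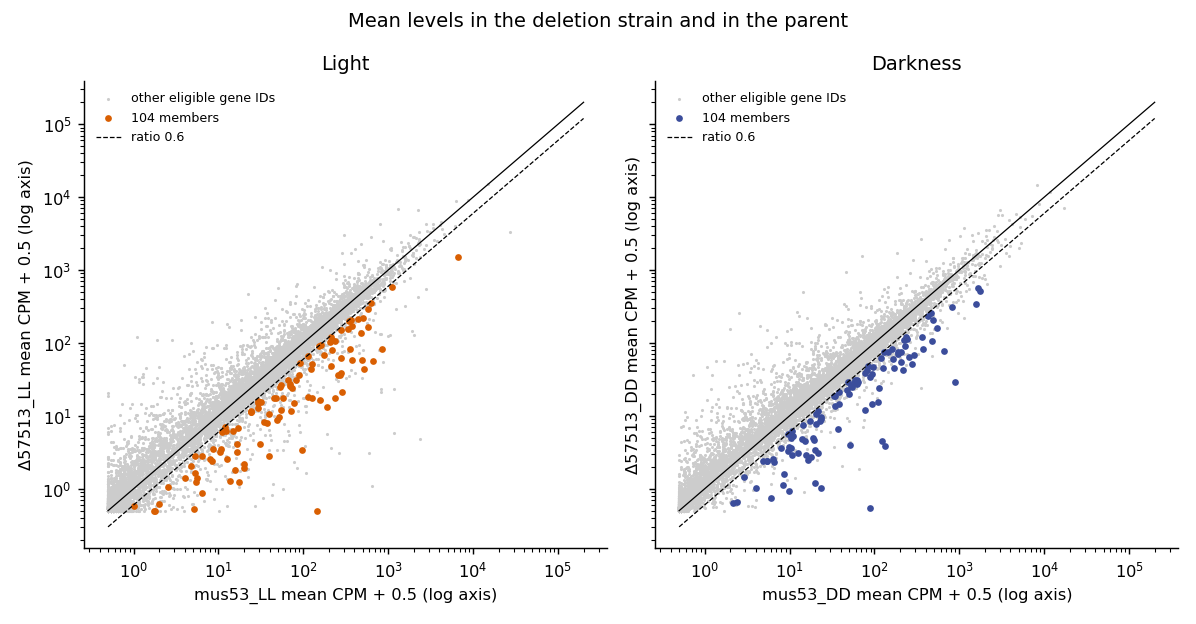
Mean level of each gene ID in the deletion strain (vertical axis) against the parent (horizontal axis), in light on the left and in darkness on the right, as CPM + 0.5 on log axes. Coloured points are the 104 members, grey points the other IDs considered, the solid line equality and the dashed line a ratio of 0.6; the members lie below the dashed line in both panels, and their median ratio is 0.325 in light and 0.375 in darkness.

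The members just inside the ratio threshold were TrG0311C, with a larger ratio of 0.594, and TrA0351W, with 0.592. TrG0311C stood at 66.3 CPM in the deletion strain against 112 CPM in the parent in light, and at 82.2 against 161 CPM in darkness. TrA0351W stood at 26.3 against 54.3 CPM in light and at 28.2 against 48.0 CPM in darkness. TrA1415W and TrE1116C lay just outside, with larger ratios of 0.601 and 0.604, both in darkness. TrE1116C was at 20.9 CPM in the deletion strain and 828 CPM in the parent in light, a ratio of 0.0258. It thus stood just outside with a far lower ratio in 1 condition than many members, whereas TrA1415W had 0.582 in light.

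TrA1495C had the lowest ratio in both conditions. It had 0 counts in the 3 deletion libraries in light, against 148, 136 and 147 CPM in the parent libraries. In darkness it had 0.109, 0 and 0 CPM in the deletion libraries, against 75.7 and 100.4 CPM in the parent libraries. It was thus next to undetected in 6 deletion libraries and at a moderate level in 5 parent libraries. No ID was matched to the deleted locus, so whether TrA1495C is the deleted gene itself was not tested. Its lower level cannot be told apart from the removal of the gene. In light it was at least 1350-fold lower in the deletion strain, with 3 counts in the whole group taken as the floor. In darkness 2 counts in the deletion strain against 2758 in the parent gave a ratio of parent to deletion strain of 2127 (95% counting interval 588 to 17571).

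TrE0079W and TrG0638W, picked after their values were seen, were also at 0 counts in the deletion strain in light. The parent had 2.21, 1.37 and 0.342 CPM of TrE0079W in light. By the parent mean it was at least 12.3-fold lower in the deletion strain, and for TrG0638W the bound was 11.9-fold. These bounds leave out the spread of the parent libraries, and TrE0079W had only 3 counts in parent replicate 3 in light. These were weakly expressed members, with parent means in light of 1.31 ± 0.938 CPM and 1.26 ± 0.853 CPM (SD, n = 3). Such near-silence was the exception. Only 7 of 104 members averaged under 1 CPM in the deletion strain in both conditions, while 17 averaged at least 100 CPM there in light and 13 in darkness.

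The next lowest ratio in darkness belonged to TrA1580C. In darkness it stood at 2.74, 4.43 and 2.97 CPM in the deletion libraries, against 171 and 96.8 CPM in the parent libraries, a ratio of 0.0289. In light it stood at 15.7, 17.4 and 17.8 CPM in the deletion libraries, against 134, 129 and 116 CPM in the parent libraries, a ratio of 0.138. The parent libraries in light and in darkness overlapped, whereas every deletion library was higher in light than in darkness.

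TrB1382C had the next lowest ratio in light, 0.0358. In light it stood at 3.44, 2.42 and 2.91 CPM in the deletion libraries, against 95.9, 71.7 and 118 CPM in the parent libraries. In darkness it was nearly silent in both strains, with 0.164, 0.303 and 0 CPM in the deletion libraries against 2.27 and 1.58 CPM in the parent libraries. The strains therefore differed by far more CPM in light than in darkness.

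The members spanned a wide range of abundance. Group medians over the 104 members were 15.7 CPM in the deletion strain and 61.1 CPM in the parent in light, and 16.5 and 51.5 CPM in darkness. For all 9040 tested IDs the medians were 34.6 and 33.7 CPM in light and 33.3 and 31.4 CPM in darkness. Members made up 0.619% to 0.686% of the counts of the deletion libraries and 1.96% to 2.5% of those of the parent libraries in light. In darkness these shares were 0.477% to 0.555% and 1.64% to 1.73%. As the rule chose IDs high in the parent, these sums restate it. They are shares of read counts, without regard to gene length. In the parent in light, TrB1256C alone gave 8995, 6210 and 4507 of the 24972, 21773 and 19629 CPM summed over members. Without it the parent sums were 15977, 15563 and 15122 CPM in light, and 15658 and 14530 CPM in darkness.

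TrB1256C had the highest level of the members in either strain in light. In darkness TrE0206W was above it in the deletion strain, at 569 against 515 CPM, and close to it in the parent, at 1661 against 1753 CPM. In light it stood at 1590.5, 1431 and 1449.9 CPM in the deletion libraries, against 8995, 6210.1 and 4507 CPM in the parent libraries. In darkness it stood at 489.9, 491 and 563 CPM in the deletion libraries, against 1645 and 1861 CPM in the parent libraries. The deletion libraries lay close together in each condition, and the parent libraries in light were the most spread. Its ratio was 0.227 in light and 0.294 in darkness.

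The members with the highest parent mean in the other series differed in how evenly they were lowered. TrF1062C was lowered least of these, with 127, 107 and 96.7 CPM in the deletion libraries against 245, 205 and 198 CPM in the parent libraries in light. Dark levels were 89.5, 131 and 144 CPM in the deletion libraries, against 252 and 214 CPM in the parent libraries. Its ratios of 0.511 in light and 0.524 in darkness were almost the same.

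TrD0187W was similar, with ratios of 0.44 in light and 0.388 in darkness. Light cultures had 229.8, 238 and 198 CPM in the deletion libraries, against 656, 489 and 370.0 CPM in the parent libraries. In darkness the levels were 48.6, 110.2 and 109 CPM in the deletion libraries, against 239 and 222 CPM in the parent libraries. Within each strain every light library lay above every dark library.

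TrG0214W was lowered further in light than in darkness. In light it had 64.4, 58.5 and 45.4 CPM in the deletion libraries, against 706, 688 and 570.5 CPM in the parent libraries, a ratio of 0.0864. Dark cultures had 83.2, 216 and 182 CPM in the deletion libraries, against 591 and 497 CPM in the parent libraries, a ratio of 0.296. The parent held about the same level in either condition, and the deletion strain was lower in light.

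TrE0206W showed the same order with a wider spread. Light levels were 87.2, 81 and 80.2 CPM in the deletion libraries, against 193, 1022 and 1336 CPM in the parent libraries. In darkness there were 813, 464 and 429 CPM in the deletion libraries, against 1353 and 1969 CPM in the parent libraries. Parent replicate 1 in light stood far below the other parent libraries in light but still above all deletion libraries in light. The ratio was 0.0979 in light and 0.343 in darkness.

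TrA0868C went the other way, with a ratio of 0.282 in light and 0.0331 in darkness. In light it had 180.1, 164 and 146 CPM in the deletion libraries, against 1063, 456 and 222 CPM in the parent libraries. In darkness it had 2.3, 46 and 38.3 CPM in the deletion libraries, against 1167 and 607 CPM in the parent libraries. Here parent replicate 1 in light was the highest of its group, and without it the ratio in light was 0.483.

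**Figure D2:**
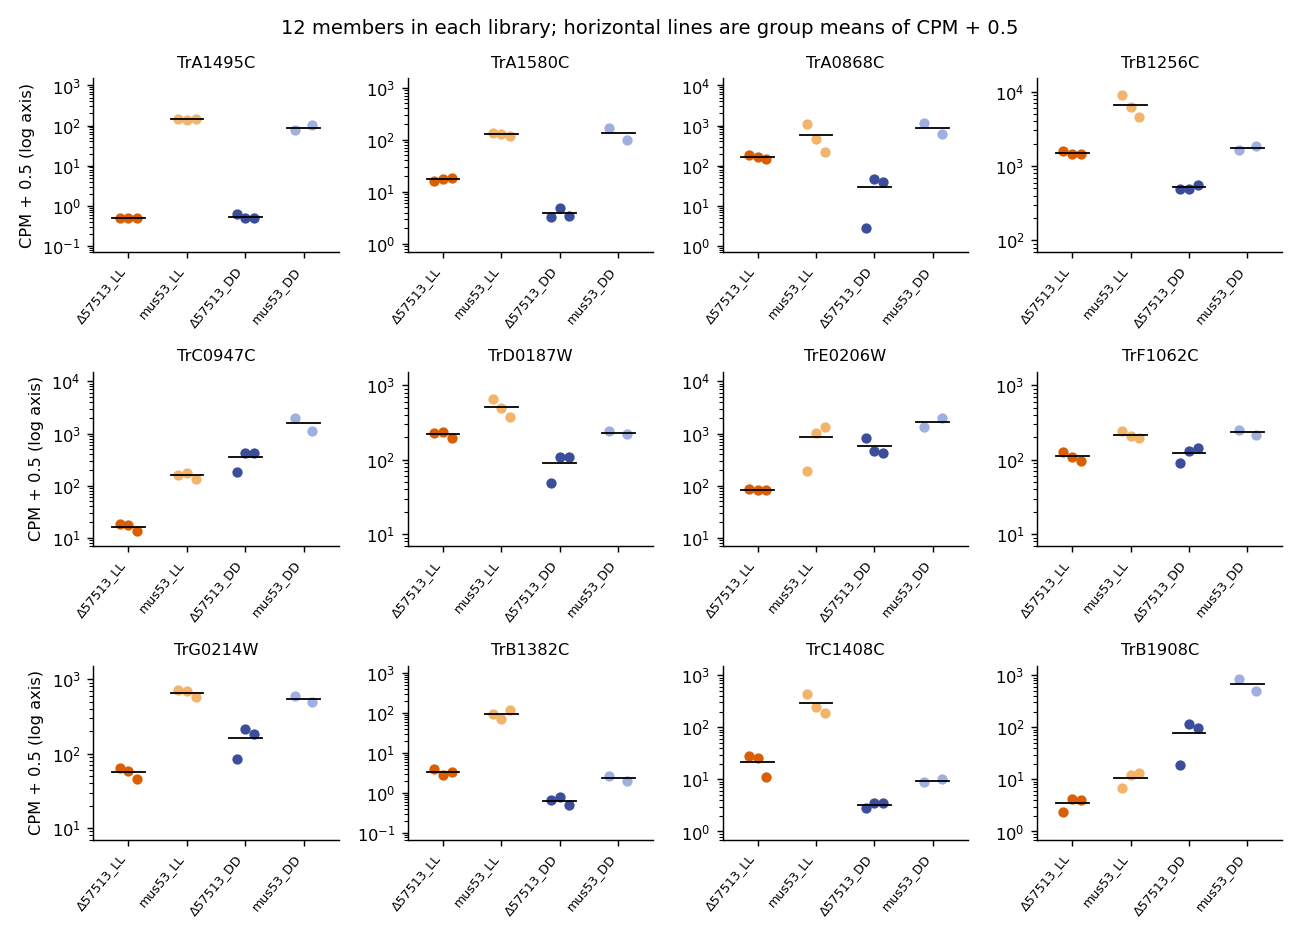
Levels of 12 members in each library (points) as CPM + 0.5 on a log axis, with horizontal lines at the group means; the groups run from the deletion strain and the parent in light to the deletion strain and the parent in darkness. TrA1495C is at or near 0 in all deletion libraries, TrF1062C has nearly the same ratio in light (0.511) as in darkness (0.524), and TrB1382C and TrC1408C have their highest levels in the parent in light.

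The ratios in light and in darkness lay within 2-fold of each other for 73 of 104 members. The ratio was lower in light by at least 2-fold for 19 members and lower in darkness by at least 2-fold for 12. Over all members, 59 had the lower ratio in light and 45 in darkness, and the median log2 ratio in light minus that in darkness was -0.06. This gap was not tested, because it is made of the same strain contrasts that chose the members.

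The widest gaps towards light were those of TrB1382C and TrC1408C, with log2 gaps of -2.92 and -2.23. TrC1408C had 27.2, 24.8 and 10.6 CPM in the deletion libraries in light, against 429, 245 and 191 CPM in the parent libraries. In darkness it had 2.3, 3.03 and 3.05 CPM in the deletion libraries, against 8.28 and 9.69 CPM in the parent libraries. Its level was higher in light in either strain, and the strains were furthest apart there.

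The widest gaps towards darkness were those of TrC0397C, with a log2 gap of 3.26, and TrA0868C, with 3.09. TrC0397C had 0.109, 1.09 and 0.87 CPM in the deletion libraries in darkness, against 17.7 and 21.2 CPM in the parent libraries. In light it was close to the detection limit, with 2 counts in all in the deletion strain and 13 in the parent, a ratio of parent to deletion strain of 7.22 (95% counting interval 1.64 to 65.9). Its ratio in light of 0.57 therefore rests mainly on the added 0.5.

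The rule did not compare light with darkness within a strain. Its level minimum, however, could be met by the parent in a single condition. TrB1382C, for example, met it only in light, with parent means of 95.1 CPM in light and 1.93 CPM in darkness. TrC0397C met it only in darkness, with 0.508 CPM in light and 19.5 CPM in darkness. The light changes of such members in the parent are therefore not independent of the rule. Their share in the calls below was not counted. The alignment numbers of the light libraries form a later block than those of the dark ones, so light and block cannot be told apart in either strain. In the deletion strain, 31 members were higher in light and 32 lower (edgeR quasi-likelihood test, Benjamini-Hochberg adjusted p under 0.05 over 9040 IDs), or 29.8% and 30.8% of the 104. Among all tested IDs, 20.3% were higher and 22.7% lower, and among the 7599 tested IDs with the same level minimum outside the series ends, 22% and 21%. In the parent, 26 members were higher and 29 lower, or 25% and 27.9%. The shares among all tested IDs were 18.3% and 20.4%, and among those with the same level minimum 20.2% and 20.3%.

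Members thus differed between light and darkness in both directions, and by more than the typical ID. The median absolute log2 fold change of light over darkness was 1.24 for members in the deletion strain, beside 0.40 for all tested IDs, and 0.92 in the parent, beside 0.42. Members also varied more between libraries of a group. Their median coefficient of variation was 14.2% in the deletion strain and 22.4% in the parent in light, and 25% and 24.9% in darkness. For tested IDs with the same level minimum it was 7.33% and 11.2% in light, and 12.5% and 11.4% in darkness. The part of this variation in the larger light changes was not tested. The level minimum was read in the parent alone, and members were less abundant than the typical tested ID in the deletion strain. Their medians there were 15.7 CPM in light and 16.5 CPM in darkness, beside 34.6 and 33.3 CPM for all tested IDs. The part of these lower levels in the variation and in the light changes was not tested either.

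The signed medians were not compared by a test. The median log2 fold change of light over darkness was -0.41 for members in the deletion strain and -0.01 in the parent, where all tested IDs had -0.01 and 0.00. The median in the deletion strain was -0.34 over 103 members with groups at 0 counts set to their floor. Scaling by library totals alone moved the medians of all IDs to 0.19 in the deletion strain and 0.15 in the parent. The medians of the members were then -0.21 and 0.14, nearly the same distance from all IDs.

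**Figure D3:**
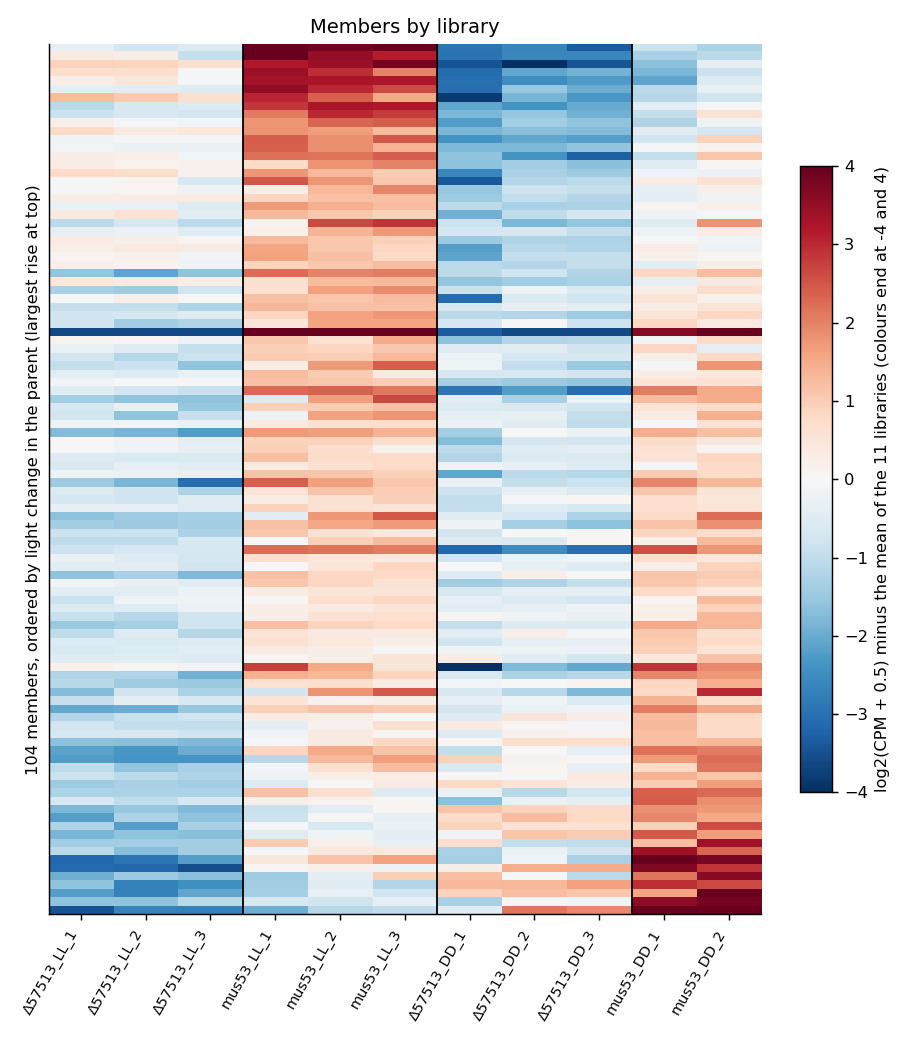
Level of each of the 104 members (rows) in each library (columns) as log2(CPM + 0.5) minus the member's mean over the 11 libraries, with colours ending at -4 and 4; rows run from the largest rise in light in the parent at the top to the largest fall at the bottom. At the top the parent in light is highest, at the bottom the parent in darkness, and 26 members passed the test as higher and 29 as lower in light in the parent.

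For 47 members the light comparison passed in both strains, in 45 of them in the same direction. There were 23 members higher in light in both strains and 22 lower in both. In the deletion strain alone, 8 passed as higher and 8 as lower, in the parent alone 1 passed as higher and 7 as lower, and 33 passed in neither. Of all tested IDs, 10.3% were higher in light in both strains and 12.6% lower in both, beside 22.1% and 21.2% of the members. In the deletion strain alone, 9.14% of tested IDs were higher and 9.49% lower, in the parent alone 7.4% and 6.96%, and 42.7% passed in neither, beside 31.7% of the members. Among the 7599 IDs with the same level minimum, 11.5% were higher and 11.9% lower in both strains, and 41.5% passed in neither. The other 2 members, TrC1338C and TrF0725C, were lower in light in the deletion strain and higher in the parent, as were 0.597% of all tested IDs, and 0 members showed the opposite, beside 0.796%. Taken by libraries that do not overlap, 3 members were lower in light in the deletion strain and higher in the parent, beside 1.59% of all tested IDs, and 0 the opposite, beside 2.67%. A comparison that passed in 1 strain alone does not show that the strains differed, and that difference was not tested. Across the 104 members, which share the 11 libraries and are not independent, the light changes of the strains correlated at Pearson r = 0.84 and Spearman rho = 0.81. Across all 9040 tested IDs the values were 0.74 and 0.60. The gap between the light changes of the strains is made of the strain contrasts that chose the members. The correlations and the shares called in both strains are therefore not independent of the rule.

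Among the members that were higher in light in both strains, TrB1382C had the largest rise in the parent, a log2 difference of 5.47 (SE 0.40, edgeR adjusted p = 1.64e-05). In the deletion strain the value was 3.88 (SE 0.50, edgeR adjusted p = 0.000338). TrB1382C met the level minimum in light alone, so its rise in the parent is not independent of the rule. TrC1408C followed, with 4.85 in the parent (SE 0.50, edgeR adjusted p = 0.000146) and 2.71 in the deletion strain (SE 0.42, edgeR adjusted p = 0.00104). For these members the light groups lay above the dark groups in every library of the same strain.

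TrE0533C had the largest rise in the deletion strain. It had 61.4, 60.6 and 51.9 CPM in light against 2.52, 1.58 and 2.54 CPM in darkness in the deletion libraries, which is 4.50 on the log2 scale (SE 0.39, edgeR adjusted p = 4.03e-05). In the parent it had 300.3, 361 and 464 CPM in light against 9.93 and 24.6 CPM in darkness, which is 4.28 on that scale (SE 0.42, edgeR adjusted p = 0.00011). The rise was of similar size in both strains, and the deletion strain stood lower in each condition. Its strain ratio was 0.156 in light and 0.153 in darkness, or 0.26 in darkness without parent replicate 2.

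TrB1256C also rose in light, on the log2 scale by 1.33 in the deletion strain (SE 0.21, edgeR adjusted p = 0.00103) and 1.75 in the parent (SE 0.25, edgeR adjusted p = 0.000638). TrD0187W rose by 1.12 in the deletion strain (SE 0.29, edgeR adjusted p = 0.0132). In the parent it rose by 0.98 (SE 0.33, edgeR adjusted p = 0.0431), a call that was lost in 9 alternatives. It was lost without either parent library in darkness, without parent replicate 1 or 2 in light and without any deletion library in light, with adjusted p of 0.0583 to 0.159.

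Among the members that were lower in light in both strains, TrB1908C fell furthest. It had 1.87, 3.63 and 3.47 CPM in light against 18.8, 115 and 97.8 CPM in darkness in the deletion libraries, which is -4.88 on the log2 scale (SE 0.69, edgeR adjusted p = 0.000698). In the parent it had 6.29, 11.6 and 12.8 CPM in light against 837 and 489.5 CPM in darkness, which is -6.16 on that scale (SE 0.71, edgeR adjusted p = 0.000261). Replicate 1 of the deletion strain in darkness was the lowest dark library and still above all light libraries.

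TrC0947C, with the highest parent mean in its series, had 17.6, 17.1 and 12.7 CPM in light against 182, 425 and 431 CPM in darkness in the deletion libraries. In the parent it had 162, 176 and 134 CPM in light against 2025 and 1112 CPM in darkness. Every light library lay below every dark library of its strain. The log2 fold changes were -4.65 in the deletion strain (SE 0.37, edgeR adjusted p = 2.64e-05) and -3.46 in the parent (SE 0.36, edgeR adjusted p = 0.000147). TrC0397C fell by 5.38 on the log2 scale in the parent (SE 0.71, edgeR adjusted p = 0.000427), with 0.466, 0.374 and 0.684 CPM in light against the dark values given above. It met the level minimum in darkness alone, so this fall is not independent of the rule.

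Several members that were abundant in the parent passed in the deletion strain and not in the parent. TrA1580C rose in the deletion strain by 2.13 on the log2 scale (SE 0.22, edgeR adjusted p = 9.84e-05), where the parent had -0.23 (SE 0.21, edgeR adjusted p = 0.434). TrG0214W fell in the deletion strain by 1.71 (SE 0.29, edgeR adjusted p = 0.00176), where the parent had 0.12 (SE 0.32, edgeR adjusted p = 0.799). TrE0206W fell in the deletion strain by 2.99 (SE 0.62, edgeR adjusted p = 0.00462), where the parent had -1.12 (SE 0.63, edgeR adjusted p = 0.188). Every parent library in light was nonetheless below every dark parent library for TrE0206W.

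**Figure D4:**
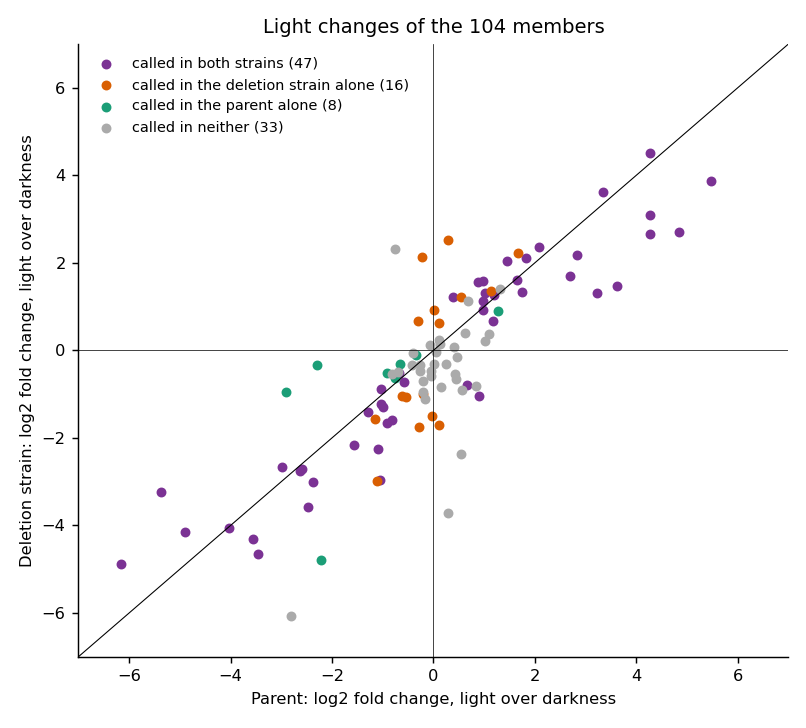
Log2 fold change of light over darkness for the 104 members in the deletion strain (vertical axis) against the parent (horizontal axis), both from edgeR; colours give the strains in which the change passed the test, and the diagonal marks equal change. The 47 members called in both strains lie mostly in the upper right (23) and lower left (22), and 33 members were called in neither; for the 3 members at 0 counts in the deletion strain in light the vertical value depends on edgeR's prior count.

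TrC0211C and TrA0127W had the smallest differences between light and darkness in the parent, by group means. TrC0211C had 37.1, 34.7 and 37.1 CPM in the deletion libraries in light, against 218, 286 and 316 CPM in the parent libraries. In darkness it had 83.2, 37.9 and 30.8 CPM in the deletion libraries, against 212 and 348 CPM in the parent libraries. Its ratios were 0.134 and 0.182, and light against darkness passed in neither strain (edgeR adjusted p = 0.159 in the deletion strain and 0.732 in the parent).

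TrA0127W averaged 15.2 CPM in the parent in light and in darkness, but the libraries disagreed. In light it had 1.08, 1.32 and 1.46 CPM in the deletion libraries, against 3.03, 15.7 and 26.8 CPM in the parent libraries. Its dark levels were 3.01, 2.55 and 1.6 CPM in the deletion libraries, against 7.79 and 22.5 CPM in the parent libraries. Its ratio of 0.114 in light was 0.181 without parent replicate 3, and its ratio of 0.184 in darkness was 0.348 without parent replicate 2.

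The lettered ID series and serial numbers were not used to choose members, apart from the ends. Members came from all 7 series, from 0.683% of the IDs considered in TrF to 1.23% in TrC. The ID suffix was C for 59 members and W for 45, which is 56.7% and 43.3% of them, beside 50.6% and 49.4% of all IDs considered. Consecutive serial numbers joined 19 members into 9 runs, 8 pairs and 1 run of 3, and in 6 of the 9 runs all suffixes were the same. The counts of runs and of shared suffixes were not compared with all IDs considered, so they are a description alone. The file gives no positions, so neighbourhood is that of the numbering alone.

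TrA1579C and TrA1580C formed such a pair, with different levels and strain differences in the same direction and order. TrA1579C had 4.22, 3.41 and 3.03 CPM in the deletion libraries in light, against 31.0, 33.3 and 27.8 CPM in the parent libraries. In darkness it had 0.383, 0.91 and 0.29 CPM in the deletion libraries, against 27.1 and 18.3 CPM in the parent libraries. Both IDs were lowered further in darkness, and both rose in light in the deletion strain, TrA1579C by 2.52 on the log2 scale (SE 0.34, edgeR adjusted p = 0.000449). TrC0946C, next to TrC0947C, fell in light as well, by 2.75 in the deletion strain (SE 0.33, edgeR adjusted p = 0.000241) and 2.64 in the parent (SE 0.33, edgeR adjusted p = 0.000387). TrA1579C and TrC0946C were picked after their values were seen.

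The run of 3 was TrF0407C, TrF0408C and TrF0409C. TrF0409C had 29.7, 25.5 and 19.3 CPM in the deletion libraries in light, against 104, 65.6 and 36.1 CPM in the parent libraries. Its dark levels were 0.383, 2.97 and 2.03 CPM in the deletion libraries, against 5.27 and 6.79 CPM in the parent libraries. Among called members averaging at least 5 CPM in the deletion libraries with groups that do not overlap, it had the next largest rise in the deletion strain after TrE0533C, 3.61 on the log2 scale (SE 0.59, edgeR adjusted p = 0.00141), and rose in the parent by 3.34 (SE 0.64, edgeR adjusted p = 0.00361).

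The other members of the run were less abundant. TrF0407C averaged 7.8 ± 2.06 CPM in the deletion strain and 33.8 ± 16.4 CPM in the parent in light (SD, n = 3 each). In darkness it averaged 2.63 ± 1.95 CPM in the deletion strain (SD, n = 3) and 12.1 ± 1.69 CPM in the parent (SD, n = 2), and light against darkness passed in neither strain (edgeR adjusted p = 0.105 in the deletion strain and 0.149 in the parent). TrF0408C averaged 5.53 ± 1.95 CPM in the deletion strain and 10.6 ± 1.52 CPM in the parent in light (SD, n = 3 each). Its rise in the deletion strain of 1.36 on the log2 scale (SE 0.40, edgeR adjusted p = 0.0204) was lost without deletion replicate 1 or 2 in light (edgeR adjusted p = 0.061 and 0.077) and when the deletion libraries were fitted by themselves (0.0571). In the parent its value was 1.14 (SE 0.43, edgeR adjusted p = 0.0605), which passed in 8 alternatives.

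**Figure D5:**
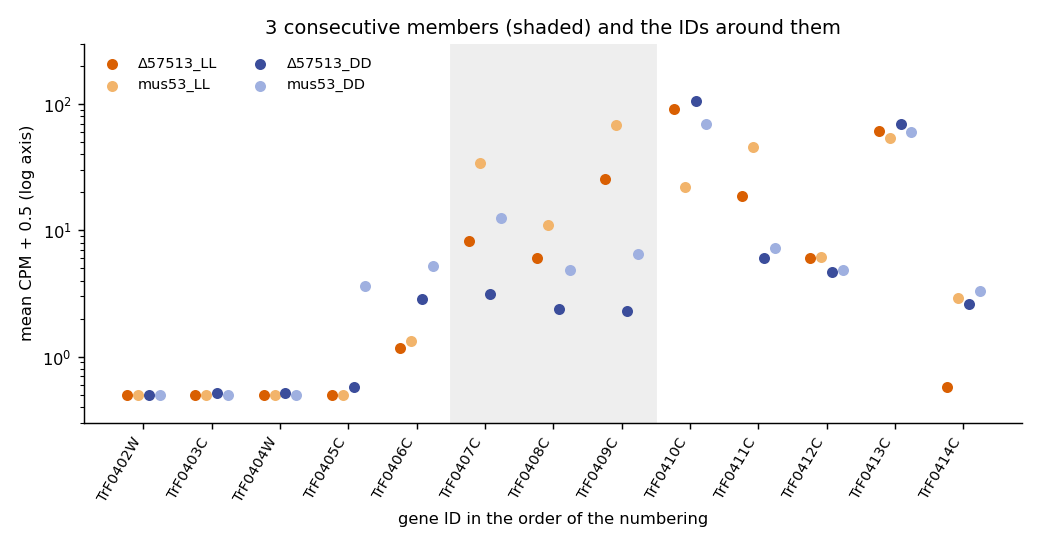
Group means as CPM + 0.5 on a log axis for 13 gene IDs in the order of their numbering, from TrF0402W to TrF0414C, with the 3 consecutive members shaded. The parent lies above the deletion strain in light and in darkness for the shaded IDs, while the next ID, TrF0410C, is higher in the deletion strain in both, at 90.7 against 21.7 CPM in light.

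The IDs around the run of 3 did not share its lower levels in both conditions. TrF0410C, next after the run of 3, had 90.7 CPM in the deletion strain against 21.7 CPM in the parent in light, and 106 against 69.2 CPM in darkness, a ratio of 4.12 in light and 1.53 in darkness. Before the run, TrF0406C had a ratio of 0.889 in light and 0.544 in darkness. TrF0411C had 0.412 in light and 0.839 in darkness, and the weakly expressed TrF0414C had 0.194 and 0.783. TrF0405C, at 0 CPM in both strains in light, had 0.158 in darkness. TrF0412C and TrF0413C had ratios of 0.968 to 1.14, and TrF0402W, TrF0403C and TrF0404W were at or near 0 CPM. Over all members, 123 IDs next to a member met the level minimum without being members. Of these, 13.8% had a ratio of at most 0.6 in light and 9.76% in darkness. Among all 7495 IDs considered with that level that were not members, flanking IDs included, the shares were 6.87% and 4.34%. The median ratios of the 123 IDs were 0.983 in light and 0.938 in darkness.

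The mirrored rule, with the deletion strain higher, was met by 285 IDs, so that the 104 members were the smaller of the sets that differed in the same direction in both light conditions.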

How the data were processed

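The authors deposited raw read counts per gene ID for 11 libraries, whole numbers without normalization, 1 column per library, matched to samples by the alignment names in the labels. Per the labels' protocols, a kit for plant RNA was used and ribosomal RNA was depleted before stranded library preparation. HISAT2 2.2.1 is named in the submitters' processing notes. How reads were assigned by strand or among multiple hits is not stated in the sources used. Values of overlapping or near-identical genes are uncertain for that reason.

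CPM values used library totals, while edgeR's log2 fold changes use TMM-scaled totals. Members and named IDs were chosen with earlier results of these data known. The named IDs follow a rule: the 2 lowest ratios in each condition, the highest parent mean in each series, the 2 largest called rises and falls in light per strain (mean of at least 5 CPM, groups not overlapping), the 2 smallest light changes in the parent, the 2 widest gaps each way, the longest run and the IDs at the threshold. The added 0.5 was also applied to the level minimum of 5.

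Light against darkness was tested with edgeR 4.0.16 (R 4.3.3): filterByExpr (9040 IDs, all 104 members, at least 99.96% of counts), TMM scaling, 1 mean per group, robust quasi-likelihood fit of all 11 libraries, Benjamini-Hochberg adjustment, threshold 0.05. Each SE given with an edgeR value was derived from the test, as the absolute log2 fold change divided by the square root of its F statistic. Groups shared an estimate of the spread although they did not vary alike. The test was checked on simulated counts that gave all IDs and groups the same spread. That check does not cover the unlike spreads of the groups and of the members. Intervals (exact, 95%) and floors cover counting error only. The alternatives comprised omission of each library, changes to the rule, a replicate block, fewer groups, other filters and scalings, limma 3.58.1 with voom, and DESeq2 1.42.0.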

Additional observations from a re-analysis of the deposited data

Results flagged for a closer look

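In 3 members every deletion library in light lay below every deletion library in darkness, while every parent library in light lay above every parent library in darkness. Of the 9040 tested IDs 1.59% showed this pattern, and 1.67% of the 7599 with the same level minimum. The members were picked after their values were seen, and the difference between the strains was not tested, since it is made of the contrasts that chose the members. For TrC1338C, the log2 ratio of light to darkness from group means of CPM + 0.5 was -0.74 in the deletion strain and 1.03 in the parent. It had 2.65, 1.65 and 2.58 CPM in light against 3.99, 4.91 and 3.55 CPM in darkness in the deletion libraries, and 43.1, 36.8 and 37.9 CPM in light against 16.2 and 21.7 CPM in darkness in the parent libraries. For TrF0725C the log2 ratio was -0.56 in the deletion strain and 0.81 in the parent. It had 7.95, 7.81 and 6.5 CPM in light against 9.9, 12.2 and 11.4 CPM in darkness in the deletion libraries, and 39.6, 35.7 and 36.0 CPM in light against 19.4 and 22.4 CPM in darkness in the parent libraries. Both passed the test within each strain, with edgeR adjusted p of 0.0049 and 0.00128 in the deletion strain and 0.00974 and 0.00466 in the parent, but TrC1338C missed it in the parent without parent replicate 1 in darkness (edgeR adjusted p = 0.0839). For TrA0970W the log2 ratio was -0.39 in the deletion strain and 0.59 in the parent, and the test passed in neither strain (edgeR adjusted p = 0.062 and 0.198).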

How the results depend on the processing

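The number of members depended on single libraries. It was 96 to 179 when 1 library was left out, 169 without deletion replicate 1 in darkness (98 of the 104 among them) and 179 without dark parent replicate 1 (96 of the 104), 96 without dark parent replicate 2 (85 of the 104, the fewest of these omissions), and 158 without the condition on single libraries. It was 118 with TMM-scaled CPM (all 104 among them), 70 at a ratio of at most 0.5, and 102 when the minimum of 5 was read without the added 0.5, an alternative chosen after seeing the data. For light in the deletion strain, members called higher ranged from 28 to 32 and lower from 26 to 35 over the omissions of 1 library, and from 29 to 34 and 28 to 38 over the other alternatives. For light in the parent the ranges were 20 to 31 and 21 to 32, and 23 to 31 and 25 to 31. None of these counts of light calls moved by over 1.5 times, unlike the number of members. With the replicate block 31 members were higher and 33 lower in light in the deletion strain, and 23 and 26 in the parent. The labels give same-numbered libraries no shared source, and they were taken to share only a number. Their deviations from the group mean correlated at -0.05 to 0.01 over 3 pairs in the deletion strain and at 0.26 and 0.14 in the 2 pairs of the parent. In light, parent replicates 1 and 2 correlated best with their own number in darkness, while no deletion library did. The deviations of the 2 dark parent libraries mirror each other, so the best match there gives only the sign of a correlation. The parent and the deletion strain are therefore not comparable in this respect. For 26 named members (21 by the rule, 5 later), the light change kept its direction and its side of the threshold in 989 comparisons with an alternative, and a call was lost in 19 and gained in 20. In 9 more the direction turned, all for members that did not pass in the parent. On the log2 scale, omission of single libraries gave -0.55 to 0.19 for TrA1580C, -0.54 to 0.25 for TrC0211C, -0.87 to 0.85 for TrA0127W and -0.37 to 0.53 for TrA0351W in the parent. Positive values came for TrA1580C from omitting dark parent replicate 1, for TrC0211C from omitting dark parent replicate 2, and for TrA0127W from omitting dark parent replicate 2 or light parent replicate 1 (0.32), against negative values with all libraries. TrA0127W also had 0.0034 with library totals only. TrA0351W, at 0.02 with all libraries, had -0.015 with RLE scaling and with DESeq2, -0.37 on omitting dark parent replicate 1 and -0.09 on omitting light parent replicate 3. TrA1495C had no value in the deletion strain without deletion replicate 1 in darkness, where it had 0 counts in both groups. In the deletion strain, the TrC0397C call rests on 2 counts in light and was lost in 5 alternatives (edgeR or limma adjusted p up to 0.106). Depth limits the weakest members, since 3 counts were 0.164 to 0.374 CPM in a library.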
